A study of Mus musculus with 6 samples.

Results

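Messenger RNA levels of 9 genes were examined out of 23284 gene symbols counted in 6 libraries of MIN6 cells. These genes make the cofactor supply and the enzymes of peptide amidation and monoamine handling: Cyb561, Pam, Th, Ddc, Gch1, Slc18a1, Slc18a2, Maoa and Maob. They were taken by symbol from the count files, and all 9 had enough counts to enter the comparison of 13039 genes. The set was chosen by measured values of this comparison as well as by function: Cyb561 was about 2-fold higher and Th lower in Paupar KD. The differences of these genes between the groups are therefore given as a description. Counts of calls among them are printed once, beside those over all genes, and support nothing.

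MIN6 is a mouse insulinoma line, raised from a tumour driven by a viral oncogene under the insulin promoter, and is used as a stand-in for pancreatic beta cells. Control KD is 3 libraries of MIN6 cells given a Control ASO, and Paupar KD is 3 libraries of the same line given a Paupar ASO, an antisense oligonucleotide against a long noncoding RNA transcribed beside Pax6. Both groups are therefore treated cells of 1 line, with no untreated group. Time of treatment, dose and whether the replicates were separate cultures are not given in the labels, so the spread between libraries may be technical.

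Secretory granules of endocrine cells hold enzymes that need ascorbate. PAM uses ascorbate and copper to turn the glycine-extended end of a peptide into an amide, a step in making IAPP (amylin), the amidated peptide that beta cells store with insulin. Cytochrome b561, the product of Cyb561, carries electrons across the granule membrane to regenerate ascorbate inside. Monoamines take a related route: tyrosine hydroxylase (Th) makes L-DOPA with a tetrahydrobiopterin cofactor whose synthesis begins with GTP cyclohydrolase (Gch1), aromatic amino acid decarboxylase (Ddc) makes dopamine or serotonin, the vesicular transporters VMAT1 (Slc18a1) and VMAT2 (Slc18a2) load them into granules, and the monoamine oxidases (Maoa and Maob) break them down in mitochondria. Beta cells are known to take up L-DOPA and to release dopamine, which restrains insulin release.

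Promoter sequences of 6 of the 9 genes, with 8 start sites, were in the RefSeq table of build GRCm38.p6; Cyb561, Slc18a1 and Maob were not matched. The Th, Slc18a2 and Gch1 sequences are shown because they hold the full cAMP response element or its short core, each from 110 bases before the start to 10 after it, 5′ to 3′ on the gene's strand, with the element or its core in capitals. They lie at chr7:142899986-142900105 (minus strand) for Th, chr19:59260768-59260887 (plus strand) for Slc18a2 and chr14:47189404-47189523 (minus strand) for Gch1, in the coordinates of that build.

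Th: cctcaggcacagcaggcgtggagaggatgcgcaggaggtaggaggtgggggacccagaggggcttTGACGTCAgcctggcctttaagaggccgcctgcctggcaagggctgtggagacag

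Slc18a2: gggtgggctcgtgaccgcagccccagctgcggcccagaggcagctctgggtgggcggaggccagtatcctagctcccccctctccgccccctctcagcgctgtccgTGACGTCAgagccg

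Gch1: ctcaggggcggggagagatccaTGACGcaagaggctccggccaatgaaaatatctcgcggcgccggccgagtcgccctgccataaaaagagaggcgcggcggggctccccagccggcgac

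The full element TGACGTCA, which reads the same on both strands, began at position -45 in Th and at position -4 in Slc18a2, where it spans the annotated start. It occurs in 1.79% of 32851 mouse promoter windows of 300 bases, searched on both strands. The core TGACG, which the full element contains on both strands, is common, at 20.8% of windows. Gch1 had the core at -88 and Maoa at -209, and the windows of Pam and Ddc held neither form. The AP-1 form TGANTCA, present in 7.81% of windows, began at -210 in Th and at -129 at 1 of the 2 Ddc starts. Positions count from the start site, negative before it. A match describes the letters of these windows and says nothing of binding in MIN6 cells.

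The 6 libraries held 16973622 to 28693863 counts. The Paupar KD libraries lay farther from the control mean than the controls did. Their root mean square log2 difference from it over the tested genes was 0.52, 0.34 and 0.34 in replicates 1 to 3. In the controls it was 0.12 to 0.13. This distance holds the group difference, and each control is part of the mean. Likeness within a group was taken from chi-square values per gene, where sampling alone gives 1. They were 3.56 to 8.47 between controls and 24.6 to 80.8 between Paupar KD libraries. Paupar is not among the gene symbols, so its own level was not analysed here. Pax6, the neighbour of Paupar, was at 585 ± 36.4 and 398 ± 16.7 CPM (counts scaled to library size; SD, n = 3 per group; edgeR adjusted p = 0.0694), and passed as lower with DESeq2 (adjusted p = 4.43e-06), with edgeR when low counts were not filtered (adjusted p = 0.0411) and with edgeR without Paupar KD replicate 1 or 3 (adjusted p = 0.0160 and 0.0198). In MIN6 cells all 10 beta cell markers were tested; their summed level was 32292 to 36464 CPM in the controls and 37980 to 56383 CPM in Paupar KD, highest in Paupar KD replicate 1, and its part in the differences below was not tested. Ins2 and Ins1 carried most of this difference, at 28450 and 14318 CPM in that library against control means of 15995 and 6340 CPM. Of the 10 log2 fold changes 7 were positive, and those of Slc30a8, Slc2a2 and Ucn3 were negative (-0.29, -0.27 and -0.55; edgeR adjusted p = 0.211, 0.296 and 0.363). In bulk RNA, fewer cells of a type and less RNA per cell cannot be told apart.

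In control cells, levels per exon length placed Th first and Slc18a2 last. On this scale, CPM per kb of exon (RPKM), Th was at 155 ± 3.83 and Maob at 108 ± 0.50 (SD, n = 3). Ddc at 67.6 ± 1.94 and Pam at 66.6 ± 2.53 RPKM did not differ beyond their spread, with Ddc above Pam in 2 of 3 controls. Gch1 followed at 24.4 ± 1.16, Cyb561 at 19.7 ± 1.29, Maoa at 10.03 ± 0.60, Slc18a1 at 6.14 ± 0.43 and Slc18a2 at 1.97 ± 0.37 RPKM. Every other pair of neighbours in this order kept it in 3 of 3 controls without overlap.

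**Figure D1:**
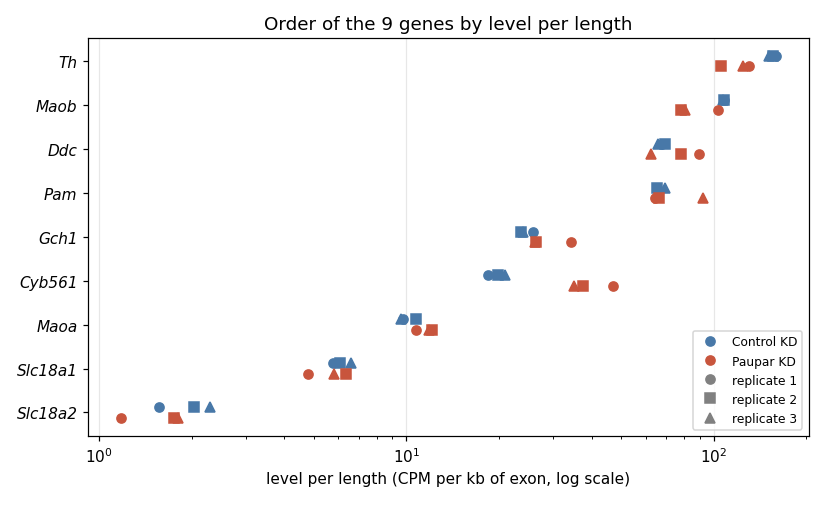
Level per length of the 9 genes on a log axis (CPM per kb of exon), with the 3 Control KD libraries in blue and the 3 Paupar KD libraries in red. Th is highest in both groups and Slc18a2 lowest. Cyb561, by whose difference the set was chosen, lies below Gch1 in the controls and above it in Paupar KD on this scale.

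The order was nearly kept in Paupar KD. Th stood first at 120 ± 13.02 RPKM, followed by Maob at 87.4 ± 13.8, Ddc at 76.8 ± 13.6 and Pam at 74.3 ± 15.4 RPKM. Maob overlapped with Ddc, and Ddc with Pam. Cyb561 and Gch1 exchanged places on this scale, with Cyb561 at 39.9 ± 6.37 and Gch1 at 28.9 ± 4.61 RPKM, without overlap. The exchange restates the higher Cyb561 by which the set was chosen, and it depends on the exon lengths used. Without division by length, the control mean of Cyb561 was already above that of Gch1, at 72.0 and 67.7 CPM. Maoa, Slc18a1 and Slc18a2 again took the last 3 places, at 11.5 ± 0.75, 5.65 ± 0.79 and 1.58 ± 0.35 RPKM.

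Cyb561, the granule electron carrier, lies at 105795016 to 105814650 of chromosome 11 (mm9, minus strand). It was at 67.1, 72.3 and 76.5 CPM in Control KD replicates 1 to 3 and at 172, 137 and 128 CPM in Paupar KD replicates 1 to 3. Every Paupar KD library lay above every control, with replicate 1 the highest. The means were 72.0 ± 4.71 and 146 ± 23.3 CPM (SD, n = 3 per group), a 2.03-fold difference and a log2 fold change of 1.02 ± 0.13 SE. These values rest on 1515 to 2985 reads per library, for which counting alone gives a coefficient of variation of at most 2.57%. The difference is the one by which the set was chosen.

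The nearest counted genes on either side of Cyb561 did not share its pattern. Tanc2, 4.4 kb away, was at 78.6 ± 7.64 and 55.6 ± 24.1 CPM (SD, n = 3 per group; edgeR adjusted p = 0.378), the Paupar KD libraries running from 31.4 to 79.6 CPM. Tanc2 passed as lower once Paupar KD replicate 3 was left out (log2 fold change -0.85, edgeR adjusted p = 0.0484), in a fit that called 745 genes lower. With all libraries its log2 fold change was -0.50, and lacking Paupar KD replicate 1 it was -0.22 (edgeR adjusted p = 0.434). Ace, 14.6 kb to the other side, encodes angiotensin-converting enzyme and was near 1 CPM in every library, at 1.41 ± 0.15 and 1.29 ± 0.35 CPM (edgeR adjusted p = 0.833).

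Pam, the amidating enzyme gene, spans 99691691 to 99992223 of chromosome 1. It stood at 521, 520.4 and 556 CPM in the controls and at 515, 531 and 736 CPM in Paupar KD replicates 1 to 3. Replicates 1 and 2 lay among or beside the controls, and replicate 3 alone was higher. The means were 532 ± 20.2 and 594 ± 123 CPM, with a log2 fold change of 0.16 ± 0.14 SE. Leaving out Paupar KD replicate 3 gave a log2 difference of -0.03, so its sign rests on that library. Within each library Cyb561 per length was 0.28 to 0.30 of Pam in the controls and 0.73, 0.57 and 0.38 of Pam in Paupar KD replicates 1 to 3. The ratio was above the controls in all 3 libraries and nearest to them in replicate 3, where Pam was highest. Since the set was chosen for higher Cyb561, the ratio restates that choice and is no further result.

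**Figure D2:**
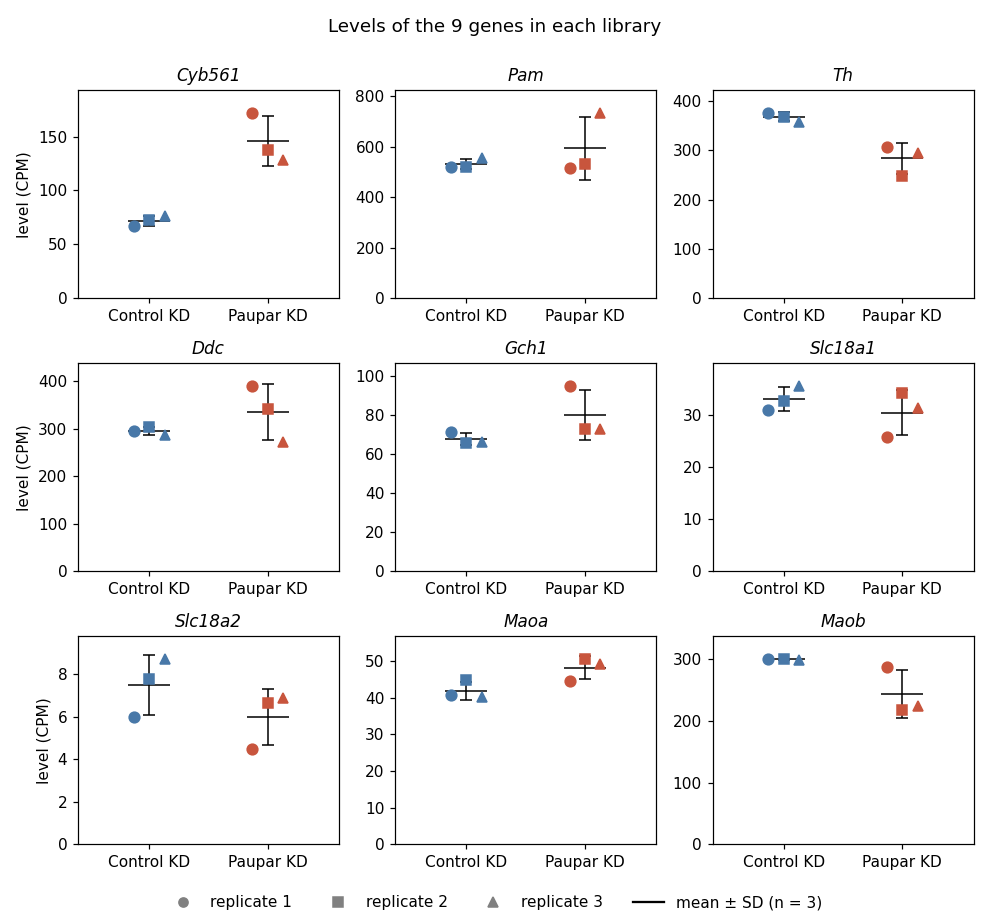
Level of each gene in CPM on axes that start at 0, with 1 symbol per library and the mean ± SD of 3 libraries in black. Cyb561 and Gch1 are higher, and Th and Maob lower, in every Paupar KD library than in any control, while Pam, Ddc, Slc18a1, Slc18a2 and Maoa overlap between the groups.

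Th, which encodes the first and rate-limiting enzyme of catecholamine synthesis, lies at 150078657 to 150117033 of chromosome 7. It was at 376, 367 and 358 CPM in the controls and at 307, 248 and 295 CPM in Paupar KD replicates 1 to 3. All 3 Paupar KD libraries lay below all 3 controls, with replicate 2 the lowest. The means were 367 ± 9.07 and 283 ± 30.8 CPM, 22.8% lower in Paupar KD (log2 fold change -0.37 ± 0.10 SE). This too is a difference by which the set was chosen.

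Th lies 193 kb from Ins2, the insulin gene, and 226 kb from Igf2, and the values of these neighbours were not alike. Ins2 was at 15995 ± 1422 and 21916 ± 5659 CPM, higher in Paupar KD without overlap (edgeR adjusted p = 0.253). Igf2, which encodes a growth factor, stood at 9870.2 ± 184 and 8762 ± 577 CPM, lower without overlap, the same side as Th (edgeR adjusted p = 0.353). Ascl2, 35.7 kb to the other side of Th, was too low to be tested, at no more than 0.098 CPM in any library.

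Ddc, at 11714104 to 11798047 of chromosome 11, makes dopamine from L-DOPA and serotonin from 5-hydroxytryptophan. It was at 295, 302 and 286 CPM in the controls and at 390.2, 341 and 272 CPM in Paupar KD replicates 1 to 3. Paupar KD replicates 1 and 2 lay above the controls and replicate 3 below them. The means were 294 ± 8.44 and 335 ± 59.1 CPM (log2 fold change 0.18 ± 0.13 SE). The log2 difference was 0.05 lacking Paupar KD replicate 1 and 0.31 lacking replicate 3. Th per length was 2.24 to 2.35 times Ddc in the controls and 1.45, 1.34 and 1.99 times Ddc in Paupar KD replicates 1 to 3. This ratio of messenger RNA levels was below the control range in each Paupar KD library, with replicate 3 nearest to it. Since the set was chosen for lower Th, the ratio in part restates that choice and is no further result.

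Gch1, the gene for the entry enzyme of tetrahydrobiopterin synthesis, lies at 47773570 to 47809088 of chromosome 14. Its levels were 71.5, 65.5 and 66.3 CPM in the controls and 95.1, 73.1 and 72.7 CPM in Paupar KD replicates 1 to 3. The groups did not overlap, but replicates 2 and 3 lay only just above the highest control and replicate 1 held most of the difference. The means were 67.7 ± 3.23 and 80.3 ± 12.8 CPM (log2 fold change 0.24 ± 0.12 SE), and without Paupar KD replicate 1 the log2 difference was 0.10.

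The vesicular transporters had the lowest levels per length of the set. Slc18a1 (VMAT1; chromosome 8, 71561610 to 71613134) was at 31.1, 32.8 and 35.7 CPM in the controls and 25.8, 34.2 and 31.5 CPM in Paupar KD replicates 1 to 3. Slc18a2 (VMAT2; chromosome 19, 59335368 to 59370502) was at 5.98, 7.75 and 8.73 CPM in the controls and 4.48, 6.65 and 6.87 CPM in Paupar KD replicates 1 to 3. For both genes the groups overlapped and Paupar KD replicate 1 was the lowest library. Their log2 fold changes were -0.12 ± 0.12 and -0.31 ± 0.21 SE, and Slc18a2 rested on only 76 to 250 reads per library, with a counting error of 11.5% at the lowest. Lacking Paupar KD replicate 1 the log2 differences were -0.02 for Slc18a1 and -0.16 for Slc18a2. Per length, Slc18a1 was 3.17 ± 0.42 times Slc18a2 in the controls and 3.64 ± 0.42 times in Paupar KD (SD, n = 3 per group).

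The oxidases lie side by side on chromosome X, with their 3′ ends facing 21.5 kb apart, Maoa at 16196824 to 16264944 and Maob at 16286408 to 16394492. Maoa was at 40.6, 44.7 and 40.1 CPM in the controls and 44.6, 50.6 and 49.2 CPM in Paupar KD replicates 1 to 3, and its groups overlapped only through 1 control at 44.7 and Paupar KD replicate 1 at 44.6 CPM. Its log2 fold change was 0.20 ± 0.09 SE. Maob was at 301, 300.1 and 298 CPM in the controls and 288, 218 and 225 CPM in Paupar KD replicates 1 to 3. All 3 Paupar KD libraries were below the controls, with replicate 1 close to them, and the log2 fold change was -0.30 ± 0.12 SE.

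The control values of Maob were closer to each other, with a coefficient of variation of 0.46%, than the 1.21% that counting alone gives at their depth, so the control spread understates the error of this gene. Maob per length was 10.7 ± 0.61 times Maoa in the controls and 9.66, 6.45 and 6.84 times Maoa in Paupar KD replicates 1 to 3. The neighbouring oxidase genes thus had log2 fold changes of opposite sign, though the groups of Maoa overlapped. Each kept its sign in the 15 alternative analyses, as did every other gene of the set but Pam. These analyses reuse the same libraries, so a kept sign is no independent support.

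**Figure D3:**
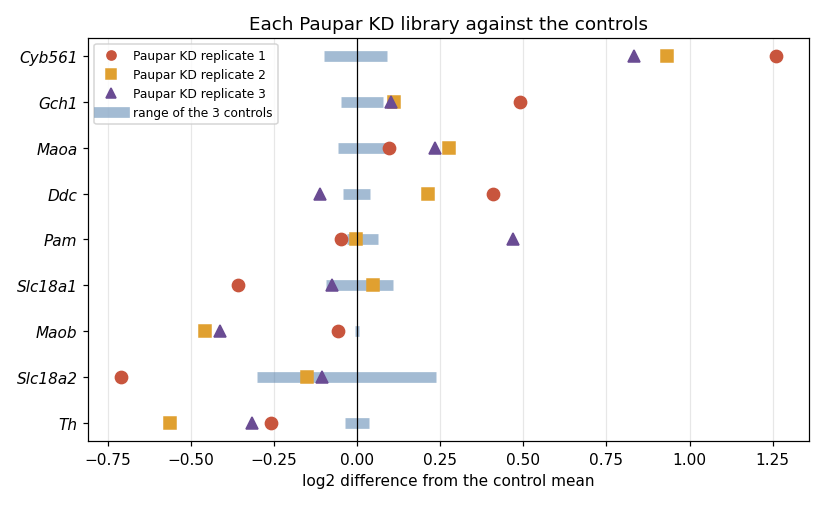
Log2 difference of each Paupar KD library from the control mean for the 9 genes, with the range of the 3 controls as a blue bar. The 3 libraries lie together on 1 side of the controls for Cyb561, Gch1, Th and Maob, whereas Pam is displaced in replicate 3 only and Ddc to both sides.

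The 9 genes varied more among Paupar KD libraries than among controls, as genes did in general. Their median coefficient of variation was 4.77% among controls and 15.9% among Paupar KD libraries, beside 5.31% and 14.2% over all tested genes. Paupar KD replicate 1 was the highest library for Cyb561, Ddc and Gch1 and the lowest for both vesicular transporters, at log2 differences from the control mean of 1.26, 0.41, 0.49, -0.36 and -0.71. It was nearer to the controls than the other Paupar KD libraries for Th, Maoa and Maob, at -0.26, 0.09 and -0.06. The library farthest from the controls thus differed from gene to gene.

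The calls among the 9 genes restate the choice of the set from this contrast, and nothing is read from them. Of the 9 genes, 0 passed as higher and 0 as lower at an edgeR adjusted p under 0.05. Over all genes 0.0383% were called higher and 0.00767% lower, and limma-voom gave those same shares and also called 0 of the 9. At an unadjusted p under 0.05, 1 of the 9 was higher (Cyb561; 9.63% of all genes) and 2 were lower (Th and Maob; 8.11% of all genes). DESeq2 called Cyb561 higher and Th lower, where 1.99% and 1.68% of its genes were called. Non-overlapping groups were found for 2 higher genes (Cyb561 and Gch1; 13.7% of all genes) and 2 lower ones (Th and Maob; 13.3% of all genes).

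Around these 9 genes, 11 lists of related genes were followed, with 157 further genes of which 85 could be tested. Of these 85, 0 passed as higher and 0 as lower over all genes by edgeR and by limma-voom, and 14 were higher and 4 lower at an unadjusted p under 0.05, where 9.63% and 8.11% of all genes were. DESeq2 called 4 of them higher and 1 lower, where it called 1.99% and 1.68% of all its genes. Their median log2 fold change was 0.07, with 55 positive and 30 negative, beside 0.01 over all tested genes, of which 51.02% were positive. Groups did not overlap for 16 higher and 4 lower genes of the 85, beside 13.7% and 13.3% of all tested genes.

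Electron carriers and ascorbate supply came next. All 5 other members of the cytochrome b561 family were tested. Each log2 fold change was positive (median 0.26), but the groups overlapped for all 5 and 0 passed with all libraries. Cybasc3, at 23.3 ± 0.99 and 27.8 ± 7.08 CPM (edgeR adjusted p = 0.474), was called higher by edgeR without Paupar KD replicate 3. In that library Cybasc3 was at 19.7 CPM, below every control. Cybrd1, an iron-handling reductase, had the largest log2 fold change of the 5, 0.41 ± 0.51 SE, at only 0.34 ± 0.16 and 0.46 ± 0.19 CPM (edgeR adjusted p = 0.694). The smallest p was that of Frrs1, a ferric reductase relative, at 7.43 ± 0.38 and 9.16 ± 2.18 CPM (edgeR adjusted p = 0.400). Of 10 genes of ascorbate uptake and recycling 7 were tested and 0 passed; Slc23a2, the ascorbate transporter SVCT2, was at 79.0 ± 5.70 and 86.3 ± 5.77 CPM. Glrx, glutaredoxin, had the smallest p of this list, at 127 ± 9.69 and 86.4 ± 17.1 CPM, without overlap (edgeR adjusted p = 0.149). DESeq2 called Glrx lower (adjusted p = 0.0213), as did edgeR without Paupar KD replicate 1 (adjusted p = 0.00680).

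PAM needs copper, which Atp7a pumps into the secretory pathway. Of 8 tested copper genes 0 passed, with 4 positive and 4 negative log2 fold changes. Atp7a was at 347 ± 19.7 and 265 ± 52.0 CPM, lower without overlap (edgeR adjusted p = 0.243). The import channel gene Slc31a1 was at 177 ± 8.72 and 163 ± 21.9 CPM and overlapped (edgeR adjusted p = 0.596). Cox17, a copper chaperone of cytochrome oxidase assembly, had the smallest p, at means of 49.8 and 71.05 CPM, without overlap (log2 fold change 0.51 ± 0.16 SE). Its edgeR adjusted p was 0.187, and it passed as higher without Paupar KD replicate 3 (adjusted p = 0.0357). Dbh, the other granule enzyme that uses ascorbate and copper, had 1 read in all controls and 4 in all Paupar KD libraries.

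Most reads of amidated peptide precursors came from Chga, Iapp, Npy and Cck. Of 36 such genes 13 were tested and 0 passed, with 7 positive and 6 negative log2 fold changes and a median of 0.03. Iapp was at 8377 ± 362 and 9428 ± 828 CPM and did not overlap between groups (edgeR adjusted p = 0.394). Cck, the cholecystokinin precursor, was at 1300.3, 1099 and 1096 CPM in the controls and 1484, 1619 and 1706 CPM in Paupar KD replicates 1 to 3. Its groups did not overlap, at a log2 fold change of 0.46 ± 0.10 SE (edgeR adjusted p = 0.133). DESeq2 called Cck higher (adjusted p = 0.00690), as did edgeR without Paupar KD replicate 1 (adjusted p = 0.0333). Npy was at 1238 ± 99.4 and 1349 ± 654 CPM, and its Paupar KD libraries held 2102, 1033 and 913 CPM.

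Cofactor and synthesis genes beyond Gch1, Th and Ddc gave 0 calls when all libraries were used. All 7 other tetrahydrobiopterin genes were tested, 6 with a positive log2 fold change (list median 0.06). Spr, the gene with a negative one, was at 21.1 ± 1.39 and 18.4 ± 5.69 CPM (edgeR adjusted p = 0.633). It was called lower by edgeR without Paupar KD replicate 3, in which it was at 24.9 CPM, above every control. Qdpr, which recycles the cofactor, was at 260.01 ± 2.52 and 271 ± 10.9 CPM, and Gchfr, the feedback regulator of GTP cyclohydrolase, at 1.10 ± 0.12 and 1.78 ± 0.69 CPM (edgeR adjusted p = 0.706 and 0.310). Serotonin synthesis was represented by Tph1 at 18.5 ± 1.20 and 17.8 ± 4.89 CPM and Tph2 at 4.46 ± 0.21 and 4.74 ± 0.50 CPM. Dnajc12, a co-chaperone of the aromatic amino acid hydroxylases, had the smallest p, at 19.3 ± 0.70 and 25.3 ± 4.96 CPM, without overlap (edgeR adjusted p = 0.249). It passed as higher without Paupar KD replicate 3 (adjusted p = 0.0375). Pnmt, which makes adrenaline, had 1 read in all 6 libraries.

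Few genes of plasma membrane uptake and of monoamine reception could be tested, while most breakdown genes could. Of 8 other storage and uptake genes 3 were tested and 0 passed; Slc29a4, a low-affinity monoamine transporter, stood at 106 ± 3.98 and 113 ± 26.7 CPM (edgeR adjusted p = 0.763). The dopamine transporter gene Slc6a3 was at 1.31 ± 0.10 and 1.22 ± 0.17 CPM, and the noradrenaline and serotonin transporter genes Slc6a2 and Slc6a4 had 1 and 3 reads in all. Of 10 other breakdown genes 9 were tested and 0 passed. Aldh2, which oxidizes the aldehydes that monoamine oxidase makes, had the smallest p, at 42.7 ± 3.22 and 58.03 ± 5.55 CPM without overlap (log2 fold change 0.44 ± 0.10 SE; edgeR adjusted p = 0.143). DESeq2 called Aldh2 higher (adjusted p = 0.0213), as did edgeR without Paupar KD replicate 3 (adjusted p = 0.0467).

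Of 27 monoamine receptor genes, 13 had no read in any library and 2 were tested. Adra2a, the inhibitory adrenergic receptor of beta cells, was at 310.4 ± 27.3 and 328 ± 38.4 CPM (edgeR adjusted p = 0.744). Drd2, an inhibitory dopamine receptor gene, had 1 read in all controls and 0 in Paupar KD, and Drd3 had 7 and 5. A gene with 0 reads may still have been present at up to 0.105 to 0.177 CPM, the 3 reads that a count of 0 allows in the deepest and the shallowest library, which covers counting error only.

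Among regulators of monoamine genes 14 were tested and 0 passed, with a median log2 fold change of 0.05. Nr4a2, a nuclear receptor that drives Th in dopamine neurons, was at 12.6, 12.2 and 14.0 CPM in the controls and 25.4, 24.8 and 17.2 CPM in Paupar KD replicates 1 to 3. The groups did not overlap, at a log2 fold change of 0.79 ± 0.16 SE (edgeR adjusted p = 0.115). DESeq2 called Nr4a2 higher (adjusted p = 0.00214), as did edgeR without Paupar KD replicate 3 (adjusted p = 0.00409). Of 14 secretory granule proteins, all tested, 0 passed, with 10 positive and 4 negative log2 fold changes and a median of 0.05. Slc30a8, the granule zinc transporter gene, had the smallest p at 472 ± 13.05 and 387 ± 35.9 CPM, without overlap (edgeR adjusted p = 0.211). It passed as lower without Paupar KD replicate 1 (adjusted p = 0.0378). Pcsk1 of the same list was at 506 ± 42.3 and 639 ± 112 CPM and overlapped (edgeR adjusted p = 0.267). Without Paupar KD replicate 3, edgeR called Pcsk1 higher.

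**Figure D4:**
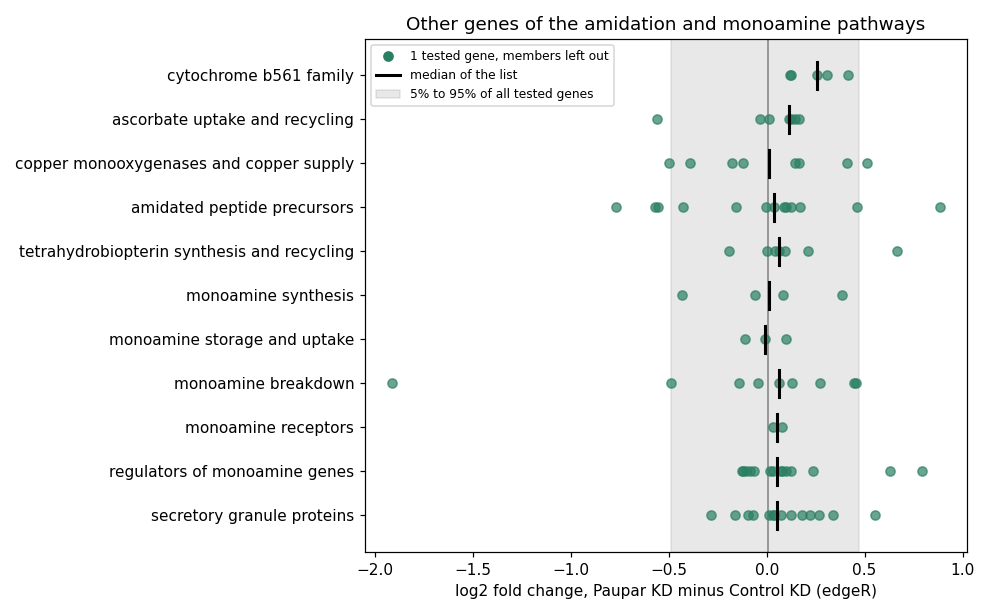
Log2 fold change (Paupar KD minus Control KD) of each tested gene of the 11 related lists, without the 9 genes, with list medians in black and the range from 5% to 95% of all tested genes in grey. The list medians lie between -0.01 and 0.26; the grey range is that of single genes and is no measure for a median.

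Markers of other monoamine cells were scarce. Of 7 chromaffin and sympathetic markers only Slc18a1 was tested, and Phox2a and Hand2 were among those with no read; the list summed to 31.1 to 35.7 CPM in the controls and 25.8 to 34.4 CPM in Paupar KD, nearly all of it Slc18a1. Midbrain dopamine neuron markers summed to 3.94 to 4.85 and 2.10 to 4.21 CPM, with Aldh1a1 the highest at 3.06 ± 0.45 and 2.17 ± 1.11 CPM (edgeR adjusted p = 0.507) and En1 at 0. Serotonin cell markers summed to 22.9 to 25.0 and 18.5 to 28.3 CPM, mostly Tph1. Alpha, delta and PP cell markers summed to 70.5 to 80.2 and 44.8 to 130 CPM, mostly Gcg, whose Paupar KD libraries held 124, 64.0 and 40.9 CPM. Mesenchymal, endothelial and immune markers summed to at most 3.74 CPM and exocrine and duct markers to at most 1.66 CPM in any library. Among these Col3a1, Cdh5, Ptprc, Cpa1, Prss1, Amy2a5 and Sox9 had no read. In both of these lists the highest gene, Cd68 at 2.46 ± 0.02 and 1.10 ± 0.35 CPM and Cela1 at 1.34 ± 0.25 and 0.78 ± 0.18 CPM, was lower in all 3 Paupar KD libraries (edgeR adjusted p = 0.133 and 0.244). Cd68 passed as lower with DESeq2 (adjusted p = 0.0262) and with edgeR without Paupar KD replicate 3 (adjusted p = 0.0193).

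The genes whose library pattern was most like that of a member were found over the 6 libraries among 10681 genes with a mean of at least 5 CPM, as the smallest root mean square distance between log2 differences from the control mean. For Cyb561 these were Gcnt2 (distance 0.090), Cdc42se2 (0.091), Gatsl2 (0.097), Eif2s3x (0.113) and Etv5 (0.125), with mean fold differences of 2.18, 2.03, 2.09, 2.06 and 2.06. For Th they were Pbld2 (0.034), Ceacam1 (0.047), Ass1 (0.051), Meis2 (0.058) and Phyhip (0.058). For Pam they were C130039O16Rik (0.049), Syt1 (0.050), Ltbr (0.050), Cux1 (0.050) and Dok5 (0.055), which shared its displacement in Paupar KD replicate 3, at 0.34 to 0.44 against 0.47 for Pam. Since these genes were picked for likeness, the distances are a description.

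Some of these genes overlap others, and the strand setting of the counting is not given in the sources used here, so reads in shared parts cannot be told apart. Slc18a1 overlaps Atp6v1b2, on the other strand, by 590 bases, and Atp6v1b2 was at 402 ± 3.89 and 386 ± 11.8 CPM. The end of Slc18a2 lies 71 bases from the end of Pdzd8, which was at 250 ± 11.1 and 270 ± 29.6 CPM. Both partners had more reads than the transporters, and the share of their reads in the transporter counts was not tested. Within Pam, B230216N24Rik on the same strand was at 1.17 ± 0.13 and 1.41 ± 0.56 CPM, and within Ddc, 1700042O10Rik on the other strand had 0.17 ± 0.12 and 0.13 ± 0.06 CPM. Both had far fewer reads than their hosts.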

How the data were processed

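The authors deposited 1 table of raw read counts per library, with 23284 gene symbols and no entries for unassigned reads. CASAVA 1.8.2, HISAT2, HTSeq and DESeq2 with build mm9 are named in the submitters' processing notes; what each did, how strand was handled and which annotation was used were not given in the sources used here. The test was that of edgeR 4.0.16, run under R 4.3.3 (filterByExpr with a minimum count of 10, TMM factors, robust quasi-likelihood test of 3 Paupar KD against 3 Control KD libraries, Benjamini-Hochberg over 13039 genes). The SE is the log2 fold change over the square root of F. CPM are counts scaled by total and TMM factor; RPKM divide them by the merged exon length in GENCODE M1 (assembly NCBIM37, that is mm9), an approximation where the authors' gene models differ. Log2 differences of single libraries used CPM + 0.1. Alternatives used DESeq2 1.42.0, limma 3.58.1, other scalings and filters, a replicate block and each library left out. The edgeR script was tested on simulated counts of 12938 genes. It called 31 of 67 genes changed 1.5-fold, 61 of 67 changed 2-fold and 63 of 66 changed 4-fold, with 9 false calls. Differences of 1.5-fold or less can thus go uncalled, and the simulated spread need not be that of these libraries.

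Members and lists were chosen with earlier results of these data known. Named genes are the 9 members, the pathway gene with the smallest p of each list (up to 4 where any passed), the 5 genes most like Cyb561, Th and Pam, neighbours of Cyb561 and Th, Pax6 and the highest marker of each list; other genes of the lists were chosen after their values were seen. Libraries of a group differed by more than counting noise, with chi-square values per gene, where sampling alone gives 1, of 3.56 to 8.47 between controls and 24.6 to 80.8 between Paupar KD libraries. Some genes of the lists are not reported here.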

Additional observations from a re-analysis of the deposited data

How the results depend on the processing

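The whole-table counts of 5 higher and 1 lower genes became 36 and 24 when low counts were not filtered, 2 and 0 at a mean CPM of at least 1, 3 and 0 under upper-quartile scaling, and 259 and 218 with DESeq2; the cause was not tested. Over the 6 fits that each lack a library they ran from 0 to 611 and from 0 to 745: 123 and 128 lacking Paupar KD replicate 1, 611 and 745 lacking Paupar KD replicate 3, and 0 in both directions lacking any of the others. With a replicate block edgeR called 1 higher and 0 lower genes; deviations of same-numbered libraries correlated at 0.073, -0.0098 and 0.0068, so the numbers are not shown to pair them. Calls among the 85 related genes went from 0 and 0 to 4 higher and 1 lower with DESeq2. They ran from 0 to 10 and from 0 to 2 when a library was left out. Lacking Paupar KD replicate 1 they were 1 and 2, where 123 and 128 genes of the whole table were called. Lacking Paupar KD replicate 3 they were 10 and 2, where 611 and 745 genes of the whole table were called. Nothing is read from these counts. The log2 difference was 0.88 to 1.10 for Cyb561 and -0.44 to -0.29 for Th over 15 alternatives. Of the 9 genes only Pam changed sign, at -0.026 to 0.24 when a library was left out. Among uncalled genes the sign also changed when a library was left out for Slc29a4 (-0.12 to 0.20), Adra2a (-0.029 to 0.15), Ace (-0.36 to 0.057), Tph1 (-0.28 to 0.13) and Gcg (-0.45 to 0.40). Gcg was also at -0.056 with limma-voom and -0.044 with a replicate block. Depth limits Slc18a2 most, with 76 reads in the shallowest library.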

Other observations

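Ppy, the pancreatic polypeptide precursor, an amidated peptide gene too low to be tested, had 7, 5 and 8 reads in Control KD replicates 1 to 3 and 42, 4 and 13 reads in Paupar KD replicates 1 to 3. Pomc, another precursor of amidated peptides, was at 3.05 ± 0.20 CPM in the controls and at 7.08, 5.38 and 4.51 CPM in Paupar KD replicates 1 to 3 (edgeR adjusted p = 0.133), and was called higher by DESeq2 and by edgeR without Paupar KD replicate 3. Crem, a cAMP-responsive regulator gene, was at 4.90 ± 0.56 and 7.62 ± 1.16 CPM without overlap (edgeR adjusted p = 0.160), and was called higher by edgeR without Paupar KD replicate 3. The values of these genes were seen before they were chosen.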
